A study of Mus musculus with 10 samples.

Results

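The genes described here encode 9 laminin chains, the alpha chains Lama1, Lama2, Lama3, Lama4 and Lama5, the beta chains Lamb1, Lamb2 and Lamb3, and the gamma chain Lamc1. They were chosen by symbol and are 9 of the 55385 gene identifiers in the deposited values. Other laminin genes were not analysed here. RNA was sequenced from the cultured mouse melanoma line WT31 and from its subline WT31_P5IV, which the labels also name WT31_Passage_5, with 5 libraries of each. WT31 came from mice of the genotype Tyr::NrasQ61K/°; INK4a−/−, which both lines share, and WT31_P5IV is a subline obtained from it by 5 passages over the liver after intravenous injection. Both were grown in RPMI medium with fetal calf serum, received no drug, and were harvested sub-confluent, so the libraries hold cultured cells and no tissue. WT31_P5IV is 1 subline, and hepatic passaging and the descent of this subline cannot be told apart. The titles number 5 biological replicates per line without saying which cultures they came from, so p-values measure the spread between these libraries only.

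Laminins are secreted heterotrimers of an alpha, a beta and a gamma chain joined in a coiled coil. They form the sheet of the basement membrane to which cells hold through integrins and dystroglycan. The alpha chain carries the main receptor-binding domains and differs most between tissues, Lama4 and Lama5 being the alpha chains of vessel walls. The question here is which chain mRNAs differed between the subline and its parent, and which trimers the mRNA levels would allow.

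In WT31_P5IV the mRNA of Lama5, Lamb2, Lamc1 and Lama4 was higher than in WT31, and that of Lamb1 and Lama1 was lower. The smaller differences were less firm, since Lama1 overlapped between the groups and lost its call in 8 of 21 alternative ways of processing, and Lama4 lost its call in 3, among them both tests on TPM, the deposited level corrected for transcript length and library total. The increases of Lama5 (2.09-fold), Lamb2 (1.87-fold) and Lamc1 (1.77-fold) kept their call under each of the 21 alternatives. The beta chains moved in opposite directions, and the ratio of Lamb2 to Lamb1 was 1.62 ± 0.215 in WT31 and 4.66 ± 0.464 in WT31_P5IV in TPM (SD, n = 5). Lama2, Lama3 and Lamb3 had at most 10 counts in any library.

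The genome stretches before the starts of Lama5, Lamb2 and Lamb1 are shown because these chains had, among the 6 chains that passed the filter on low counts, the largest fold change, the largest increase of a beta chain and the only decrease of a beta chain. Each runs 5′ to 3′ on the strand of its gene in RefSeq's GRCm38.p6 and ends at the gene start of GENCODE M21 or RefSeq, whichever lies further upstream. Capitals mark the GC box GGGCGG, a motif of promoters without a TATA box, on either strand. They lie at chr2:180225860-180226109 on the minus strand, chr9:108479612-108479735 on the plus strand and chr12:31265043-31265233 on the plus strand.
Lama5: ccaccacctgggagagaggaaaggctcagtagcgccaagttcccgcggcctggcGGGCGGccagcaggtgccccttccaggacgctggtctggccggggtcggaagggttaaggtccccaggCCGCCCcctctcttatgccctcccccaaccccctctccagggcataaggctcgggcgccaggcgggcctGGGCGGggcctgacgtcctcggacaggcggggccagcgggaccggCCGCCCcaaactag
Lamb2: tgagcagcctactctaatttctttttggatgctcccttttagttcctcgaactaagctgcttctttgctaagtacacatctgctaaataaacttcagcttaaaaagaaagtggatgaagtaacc
Lamb1: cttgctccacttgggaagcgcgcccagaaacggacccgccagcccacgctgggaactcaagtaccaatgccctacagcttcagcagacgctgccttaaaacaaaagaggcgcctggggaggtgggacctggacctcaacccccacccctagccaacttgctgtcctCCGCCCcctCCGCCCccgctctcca

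In the full windows of 250 bases before the RefSeq start, Lama5 had 4 GC boxes, Lamb1 had 2 and Lamb2 had 0. RefSeq windows were matched for 5 of the 9 genes. Of all 32817 RefSeq windows of this length, 32.7% hold at least 1 GC box. The Lama5 window had 19 CpG sites and 72.4% G and C, the Lamb1 window 14 and 62.0%, and the Lamb2 window 3 and 43.6%, beside a median of 6 and 52.4% over all windows. The letters CATGTG, the core of the M-box bound by the melanocyte factor Mitf, were found 1 time in the Lamb1 window and in 12.3% of all windows. GGAATG (TEAD factors, 12.6% of all windows), TGANTCA (AP-1, N being any base, 6.75%) and TATAAA (12.4%) had 0 matches in these windows on either strand. No match overlapped a match of another motif, and a match is a string of letters, not evidence of binding.

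Libraries held 24255389 to 25750639 estimated counts. CPM, counts relative to library sizes scaled by TMM, are used for comparisons of a gene between groups, and 3 counts, taken as the limit of detection, correspond to 0.114 to 0.129 CPM. These limits cover counting error only. The edgeR quasi-likelihood test, at a Benjamini-Hochberg adjusted p below 0.05, called 68.5% of 13620 genes, 34.6% higher and 33.9% lower in WT31_P5IV. A log2 fold change past 1 as well was met by 9.1%, of which 5.42% were higher and 3.69% lower as shares of all tested genes. With limma on log2(TPM + 0.1) there were 2915 higher and 5946 lower genes in place of 4709 and 4618, and log2 fold changes lay at a median of −0.17 from those on counts. WT31 replicates 2 and 3 stood apart from replicates 1, 4 and 5, so values without them are given where they change a result. All 7 melanocyte markers were present in both groups (summed level 17046 to 18443 CPM in WT31 and 22228 to 25730 CPM in WT31_P5IV). Among them Pmel, Dct and Tyr were called higher and Tyrp1 and Sox10 lower, whereas Mitf and Mlana were not called. The 6 mesenchymal and neural crest markers summed to 1468 to 1559 and 1281 to 1446 CPM, mostly from Vim. Vim, Axl and Ngfr were called lower and Cdh2 higher, and Zeb1 was not called. Twist1 had 6 to 12 counts in WT31 and 0 in WT31_P5IV.

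The chains can also be made by other cells of liver or vessels. The 8 endothelial markers summed to 0.275 to 0.588 CPM in WT31 and 0.214 to 0.505 CPM in WT31_P5IV, with Cdh5 and Lyve1 at 0 counts in all 10 libraries. The 7 stellate cell and fibroblast markers summed to 1.11 to 1.57 and 1.49 to 1.85 CPM, and the 7 hepatocyte markers to 0.341 to 0.627 and 0.515 to 1.30 CPM, with Serpina1a at 0 throughout. The 6 leukocyte and macrophage markers summed to 0.833 to 2.18 and 3.50 to 5.08 CPM, with Clec4f at 0 and Ptprc at 0 to 2 counts. The 5 epithelial and cholangiocyte markers summed to 1.53 to 2.14 and 0.925 to 1.501 CPM. Among the markers of these 5 lists, 3 were called. The macrophage marker Cd68 rose by 1.45 on the log2 scale, from 1.37 ± 0.455 to 3.73 ± 0.638 CPM, and Acta2, the smooth muscle actin of activated stellate cells and myofibroblasts, by 1.46, from 0.275 ± 0.164 to 0.758 ± 0.0939 CPM (SD, n = 5). Sox9, a marker of cholangiocytes that melanoma cells also express, fell by 1.02. Each sum lies below the level of each of the 6 chains that passed the filter on low counts, whereas Lama2, Lama3 and Lamb3 lie below most of the sums. Whether RNA of leukocytes, stellate cells or other such cells has a part in any chain's difference was not tested.

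Of the 9 chains, 6 passed the filter on low counts, each with at least 738 counts in every library. All of these 6 were called by the edgeR quasi-likelihood test, 4 higher and 2 lower, beside 68.5% of all tested genes. Their median log2 fold change was 0.55, beside 0.010 over all tested genes. In 5 of the 6 the CPM of the groups did not overlap, 4 lying above and 1 below, beside 54.1% of all tested genes (26.6% above and 27.5% below), and 1 of them, Lama5, was past the log2 fold change of 1, beside 9.1% in either direction and 5.42% higher. In these bulk libraries a larger share of expressing cells and more RNA per cell cannot be told apart.

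**Figure D1:**
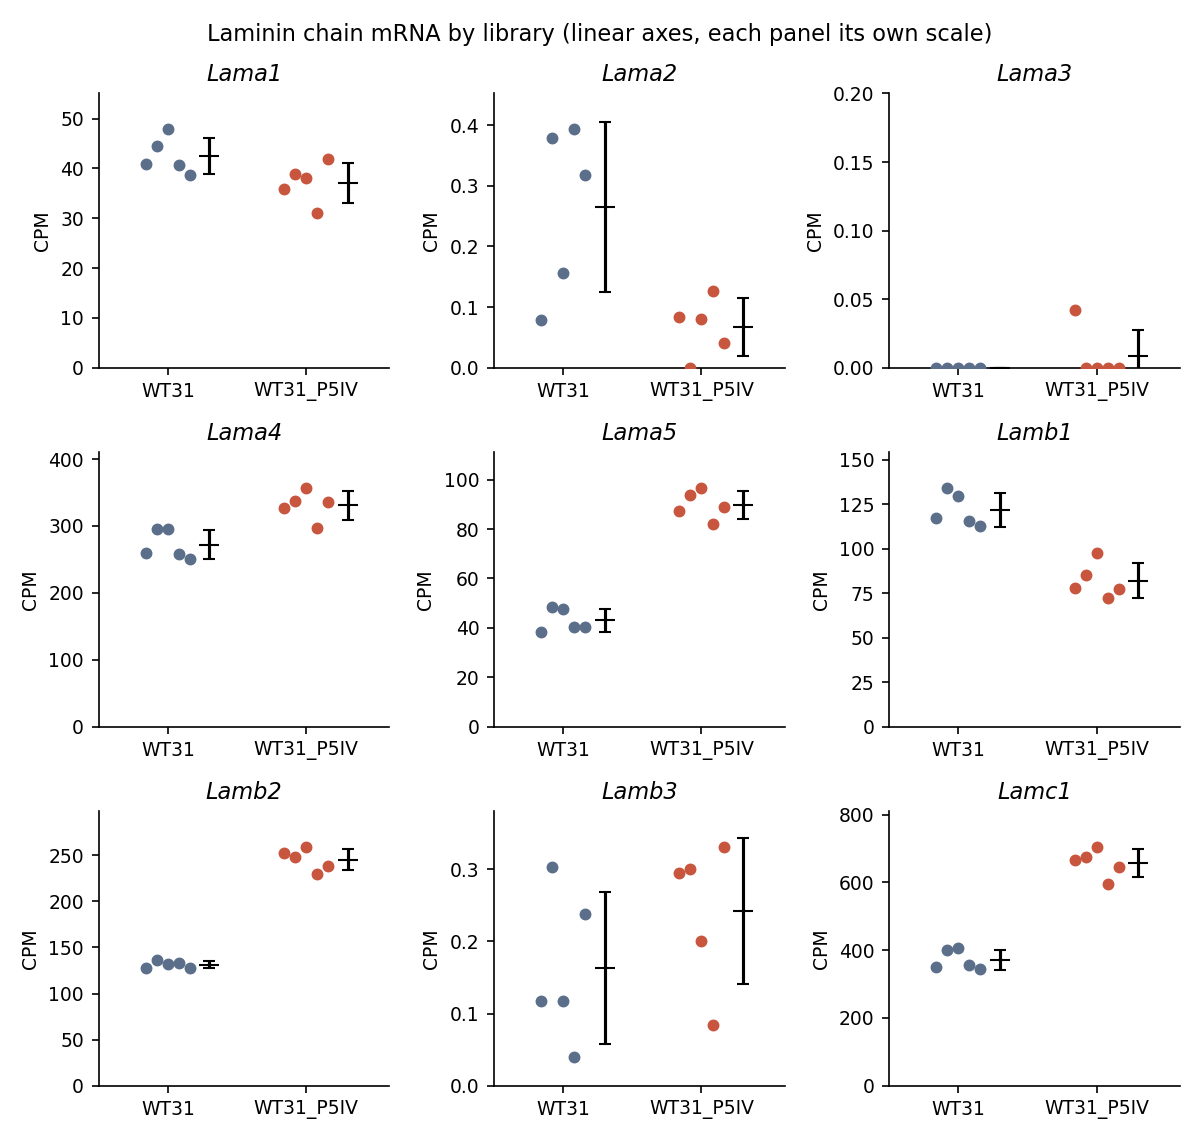
CPM of each laminin chain (linear axes from 0, each panel with its own scale) in the 5 WT31 libraries (blue) and the 5 WT31_P5IV libraries (red), in the order of replicates 1 to 5, with the mean and SD beside them. Lama5, Lamb2 and Lamc1 of WT31_P5IV lie far above all WT31 libraries, Lamb1 lies below them, Lama1 overlaps, and Lama2, Lama3 and Lamb3 stay under 0.5 CPM.

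Lama5 (ENSMUSG00000015647, chr2:180176373-180225859, minus strand, GRCm38) encodes the alpha 5 chain, the alpha chain found most widely in adult basement membranes. It was at 38.2, 48.6, 47.5, 40.4 and 40.4 CPM in WT31 replicates 1 to 5 and at 87.2, 93.7, 96.5, 81.96 and 89.1 CPM in WT31_P5IV. The lowest WT31_P5IV library lay above the highest WT31 library. The means were 43.0 ± 4.70 and 89.7 ± 5.68 CPM (SD, n = 5), a log2 fold change of 1.06 (SE 0.067, edgeR quasi-likelihood adjusted p = 4.2e-09). In absolute size this difference exceeded those of 91.8% of all tested genes. It was 1.16 without WT31 replicates 2 and 3. With limma on log2(TPM + 0.1) it was 0.87 and on log2(TPM + 1) it was 0.80, both under the log2 fold change of 1 with adjusted p of 2.6e-04 and 2.8e-04.

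Lama4 (ENSMUSG00000019846, chr10:38965515-39110188, plus strand) encodes the alpha 4 chain, a short alpha chain of vessels, muscle and nerve. It was at 259.8, 295.5, 296.1, 258.2 and 250.2 CPM in WT31 and at 326.8, 337.8, 356.3, 296.2 and 335.9 CPM in WT31_P5IV. The groups did not overlap, but WT31_P5IV replicate 4 lay only just above WT31 replicate 3. The means of 272 ± 22.1 and 331 ± 22.002 CPM (SD, n = 5) differed by 0.28 on the log2 scale (SE 0.058, edgeR quasi-likelihood adjusted p = 5.7e-04). On log2(TPM + 0.1) it was 0.14 with an adjusted p of 0.0959 in limma, on a scale whose median over all genes lay 0.17 lower, and the adjusted p over the alternatives ranged from 6.2e-06 to 1.00. Without WT31 replicates 2 and 3 it was 0.35.

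Lama1 (ENSMUSG00000032796, chr17:67697259-67822647, plus strand) encodes the alpha 1 chain, which is best known from the embryo and from kidney and retina. It was at 40.95, 44.5, 47.8, 40.6 and 38.6 CPM in WT31 and at 35.8, 38.9, 38.05, 31.1 and 41.9 CPM in WT31_P5IV. The groups overlapped, since WT31_P5IV replicate 5 lay above 3 of the WT31 libraries. The means of 42.5 ± 3.68 and 37.1 ± 4.03 CPM (SD, n = 5) gave a log2 fold change of −0.19 (SE 0.074, edgeR quasi-likelihood adjusted p = 0.031). This call was lost in 8 of 21 alternatives, among them upper-quartile scaling (adjusted p = 0.0505), both TPM scales, and leaving out WT31 replicate 3 (0.0618), WT31_P5IV replicate 1 (0.0612) or WT31_P5IV replicate 4 (0.0709). Without WT31 replicates 2 and 3 the log2 fold change was −0.12 (edgeR quasi-likelihood adjusted p = 0.118).

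Lama2 (ENSMUSG00000019899, chr10:26980036-27619758, minus strand), the alpha chain of muscle and Schwann cell basement membranes, had 2, 10, 4, 10 and 8 counts in WT31 and 2, 0, 2, 3 and 1 counts in WT31_P5IV. All WT31_P5IV libraries were at or below the limit of 3 counts, and the groups overlapped in WT31 replicate 1. An exact two-sided permutation test of the CPM gave p = 0.0317 (0.0952 after Benjamini-Hochberg adjustment over the 3 chains that were not in the test across genes). Without the filter on low counts Lama2 was called lower, with adjusted p of 0.0054 in edgeR and 0.021 in limma voom without scaling. Lama3, an alpha chain of epithelia, had 0 counts in the 5 WT31 libraries and 1, 0, 0, 0 and 0 counts in WT31_P5IV, so it was not detectable at this depth in either group. Of the words of 31 bases in the transcripts, 3.52% in Lama2 and 1.59% in Lama3 also occur in other genes, beside at most 0.181% in the 6 tested chains, so these few counts are uncertain.

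Lamb2 (ENSMUSG00000052911, chr9:108479736-108490530, plus strand) encodes the beta 2 chain, known from the neuromuscular junction, the glomerulus and arterial walls. It was at 127.4, 136.0, 132.3, 133.4 and 127.7 CPM in WT31 and at 251.98, 248.3, 258.7, 229.4 and 237.97 CPM in WT31_P5IV. Every WT31_P5IV library lay well above every WT31 library. The means were 131 ± 3.74 and 245 ± 11.6 CPM (SD, n = 5), a log2 fold change of 0.90 (SE 0.039, edgeR quasi-likelihood adjusted p = 7.8e-11). Over the alternatives it ranged from 0.77 to 0.93, with a highest adjusted p of 1.9e-06. It was the tested chain that differed least between WT31 replicates 2 and 3 and the other WT31 replicates, by 0.051 on the log2 scale, beside 0.20 to 0.28 for the other 5 tested chains.

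Lamb1 (ENSMUSG00000002900, chr12:31265234-31329644, plus strand) encodes the beta 1 chain, the more widespread partner of the alpha chains and the earlier one in development. It was at 117.5, 134.0, 129.9, 115.5 and 112.7 CPM in WT31 and at 77.7, 85.4, 97.4, 72.4 and 77.6 CPM in WT31_P5IV. The highest WT31_P5IV library, replicate 3, lay below the lowest WT31 library. Lamb1 went from 122 ± 9.43 to 82.1 ± 9.72 CPM (SD, n = 5), a log2 fold change of −0.57 (SE 0.073, edgeR quasi-likelihood adjusted p = 6.7e-06). The range over the alternatives was −0.75 to −0.50, and the call was lost in 1 of 21, the glmTreat test of edgeR with a 1.5-fold minimum (adjusted p = 1.00). Without WT31 replicates 2 and 3 it was −0.50.

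Lamb3 (ENSMUSG00000026639, chr1:193207699-193343878, plus strand), the beta chain of epithelial laminin in skin, had 3, 8, 3, 1 and 6 counts in WT31 and 7, 7, 5, 2 and 8 counts in WT31_P5IV. The groups overlapped, and the exact two-sided permutation test of the CPM gave p = 0.262. Its annotated span contains Hsd11b1 and G0s2 on the other strand and overlaps 4930570N18Rik on the same strand. The sources used here do not say whether counting used the strand. Of the words of 31 bases in the Lamb3 transcripts, 1.33% also occur in other genes. Its TPM of 0.0150 to 3.38 in WT31 rested on 1 to 8 counts.

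Lamc1 (ENSMUSG00000026478, chr1:153218922-153332786, minus strand) encodes the gamma 1 chain, the common gamma partner of all the trimers considered here. It was at 350.9, 399.2, 406.0, 355.9 and 343.9 CPM in WT31 and at 666.4, 675.4, 703.7, 594.6 and 645.5 CPM in WT31_P5IV. All 5 WT31_P5IV libraries lay above all 5 WT31 libraries. The means were 371 ± 29.1 and 657 ± 40.7 CPM (SD, n = 5), a log2 fold change of 0.82 (SE 0.056, edgeR quasi-likelihood adjusted p = 9.1e-09). Alternatives gave 0.65 to 0.89.

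The tested chains tended to share their high and low libraries within a group. WT31 replicates 2 and 3 were the 2 highest WT31 libraries for each tested chain except Lamb2. In WT31_P5IV, replicate 3 was the highest and replicate 4 the lowest for Lama4, Lama5, Lamb1, Lamb2 and Lamc1, whereas Lama1 was highest in replicate 5 and lowest in replicate 4. All 6 have a longest annotated transcript of over 5 kb. The 2921 tested genes with a longest transcript of at least 5 kb had a median log2 difference of 0.16 between WT31 replicates 2 and 3 and the other WT31 replicates, and the 10692 shorter genes −0.046. Between the lines the same medians were −0.048 and 0.028, and the part of transcript length in the chains' differences was not tested.

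**Figure D2:**
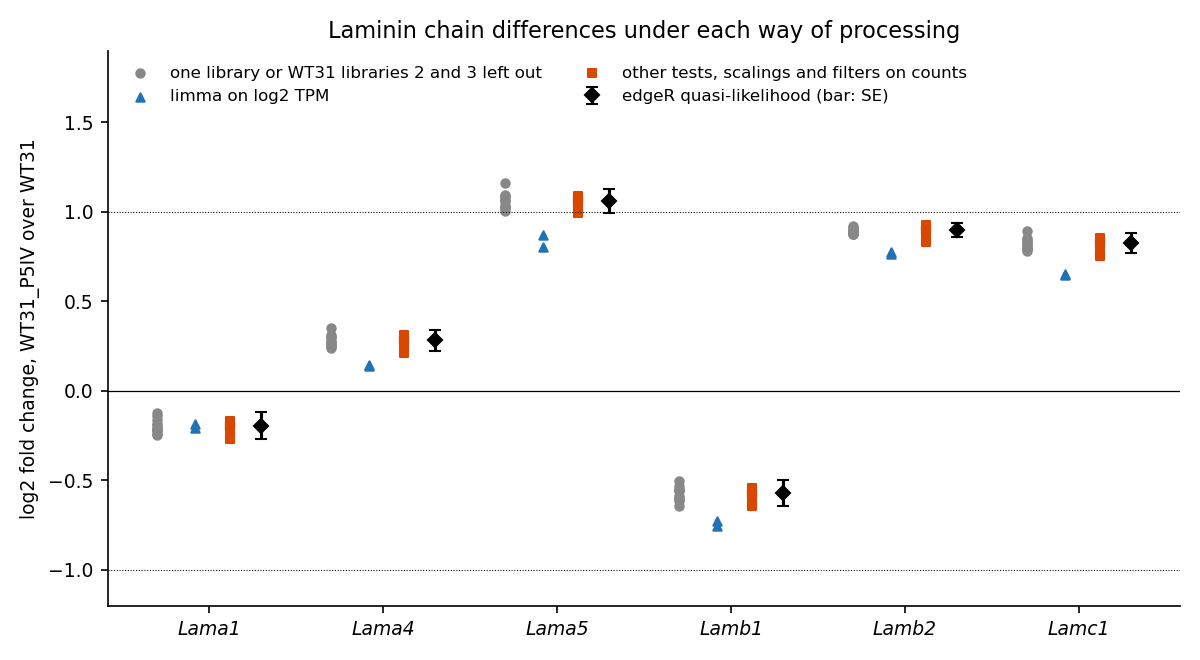
Log2 fold change (WT31_P5IV over WT31) of the 6 tested chains in edgeR's quasi-likelihood test (black diamond, bar: SE), in other tests, scalings and filters on counts (orange), on log2 TPM (blue) and with libraries left out (grey), with dotted lines at a log2 fold change of 1 and −1. No tested chain changes sign, Lama5 falls to 0.80 on the TPM scales, and Lama1 and Lama4 lie nearest to 0.

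The levels of different chains were compared per length, first in the deposited TPM. In WT31 the order was Lamc1 at 110 ± 2.58 TPM, Lama4 at 70.3 ± 7.59, Lamb2 at 53.8 ± 3.38, Lamb1 at 33.7 ± 4.28, Lama1 at 8.58 ± 0.916 and Lama5 at 8.22 ± 1.82 TPM (SD, n = 5). Each of the first 4 lay above the next in every library, whereas Lama1 and Lama5 overlapped. In WT31_P5IV the order was Lamc1 at 173 ± 5.92 TPM, Lamb2 at 92.1 ± 4.19, Lama4 at 77.4 ± 4.99, Lamb1 at 19.9 ± 2.07, Lama5 at 15.02 ± 2.52 and Lama1 at 7.45 ± 0.959 TPM, with no overlap between neighbours. Lamb2 and Lama4 thus changed places, and Lama5 lay above Lama1 in WT31_P5IV without a clear order of both in WT31.

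Each pair of deposited count and TPM implies a transcript length, which varied between libraries for some chains. It was 6.11 to 11.9 kb for Lama5 in WT31, beside 11.4 kb for its longest transcript, and 3.58 to 4.12 kb for Lamb2, beside 5.63 kb. It was 6.15 to 10.00 kb for Lama1, beside 9.53 kb, and 4.76 to 6.17 kb for Lamc1, beside 7.62 kb. In WT31 it was steadier for Lama4 (6.10 to 6.26 kb) and Lamb1 (5.64 to 5.96 kb). In WT31_P5IV it was 5.93 to 6.13 kb for Lama4 and 5.42 to 5.97 kb for Lamb1, beside 3.68 to 3.97 kb for Lamb2. Levels were therefore also given as CPM per kb of the longest transcript. On that scale Lama4 stayed above Lamb2 in WT31_P5IV, at 54.7 ± 3.64 and 43.6 ± 2.06 CPM per kb (SD, n = 5), so the change of places of Lamb2 and Lama4 holds only in TPM. In WT31, Lamc1 (48.7 ± 3.82) overlapped Lama4 (44.98 ± 3.65), and Lamb2 (23.3 ± 0.664) overlapped Lamb1 (21.1 ± 1.63 CPM per kb).

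Among the alpha chains Lama4 held most of the summed level in both lines, 80.4% ± 4.02 of the TPM in WT31 and 77.5% ± 2.64 in WT31_P5IV (SD, n = 5). The share of Lama5 was 9.53% ± 2.55 and 15.1% ± 2.63, with overlapping libraries. Per kb the share of Lama5 was 7.08% ± 0.290 and 11.9% ± 0.240, and the groups did not overlap. Lama1 made up 9.92% ± 1.63 and 7.45% ± 0.782 of the TPM, again with overlap. Per kb its share was 8.38% ± 0.215 and 5.86% ± 0.399 and that of Lama4 84.5% ± 0.251 and 82.3% ± 0.300, both lower in all WT31_P5IV libraries than in all WT31 libraries.

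Lamb2 made up 60.8% ± 3.53 of the beta chain TPM in WT31 and 80.7% ± 1.40 in WT31_P5IV, and Lamb1 37.9% ± 2.79 and 17.4% ± 1.54 (SD, n = 5). Neither share overlapped between the groups. Per kb the beta chains were nearly level in WT31, with a Lamb2 to Lamb1 ratio of 1.11 ± 0.0660, and stood at 3.09 ± 0.240 in WT31_P5IV. Lamb2 gained on Lamb1 on both scales. The beta sums and shares include the few counts of Lamb3, which made up 1.28% of the beta chain TPM in WT31 and 1.91% in WT31_P5IV.

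Relative to Lamc1, the alpha and beta sums were lower in WT31_P5IV. Alpha chain TPM summed to 87.2 ± 5.26 in WT31 and 99.9 ± 5.06 in WT31_P5IV, and beta chain TPM to 88.6 ± 6.55 and 114 ± 5.74 (SD, n = 5). The ratio of the alpha sum to Lamc1 was 0.792 ± 0.0554 in WT31 and 0.576 ± 0.0342 in WT31_P5IV, and that of the beta sum to Lamc1 was 0.805 ± 0.0675 and 0.658 ± 0.0211. All WT31_P5IV libraries lay below all WT31 libraries in both ratios. Per kb the ratios were 1.09 and 0.771 for the alpha sum and 0.915 and 0.671 for the beta sum, so whether alpha or gamma mRNA was in excess in WT31 depended on the length correction, and the direction of the difference between the lines did not.

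**Figure D3:**
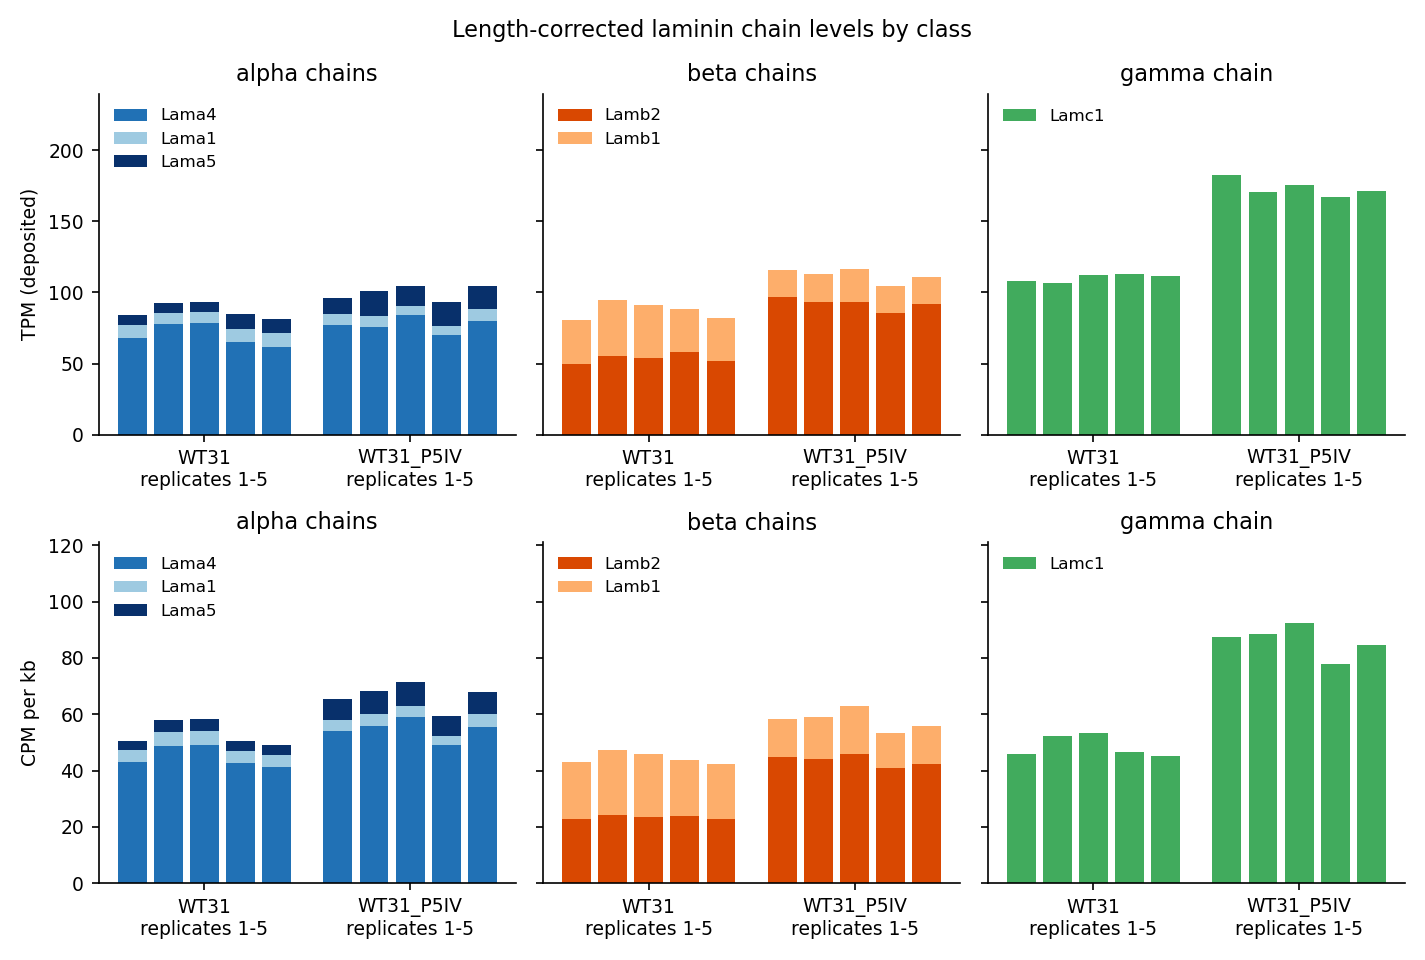
Stacked levels of the alpha, beta and gamma chains in each library, in deposited TPM (top) and in CPM per kb of the longest transcript (bottom), with axes from 0. The Lamc1 bars are taller in all 5 WT31_P5IV libraries than in all WT31 libraries, Lama4 makes up most of the alpha stack, and Lamb1 shrinks while Lamb2 grows in the beta stack.

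The lowest chain of a possible trimer gives the mRNA level that all of its chains reach, which is a property of the mRNA and not a measurement of protein. Each trimer was taken alone, although the trimers share chains, so the levels of different trimers cannot be added. For the trimer of Lama4, Lamb1 and Lamc1, Lamb1 was lowest in all 10 libraries, at 33.7 ± 4.28 TPM in WT31 and 19.9 ± 2.07 TPM in WT31_P5IV (SD, n = 5). For Lama4, Lamb2 and Lamc1 the lowest level was 53.8 ± 3.38 TPM in WT31, set by Lamb2, and 77.4 ± 4.99 TPM in WT31_P5IV, set by Lama4. Per kb, Lamb2 was lowest in this trimer in both lines, at 23.3 ± 0.664 and 43.6 ± 2.06 CPM per kb.

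In trimers with Lama5 the lowest chain was Lama5 in all 10 libraries, whichever beta chain was taken. Its level was 7.08, 6.72, 6.91, 10.3 and 10.1 TPM in WT31 and 11.3, 17.1, 13.6, 16.8 and 16.4 TPM in WT31_P5IV, without overlap. Per kb it was 3.78 ± 0.413 in WT31 and 7.88 ± 0.499 in WT31_P5IV (SD, n = 5). In trimers with Lama1 it was Lama1 in all 10 libraries, at 8.58 ± 0.916 and 7.45 ± 0.959 TPM, with overlapping groups. These quantities are sums and minima over chosen genes and were given no test.

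**Figure D4:**
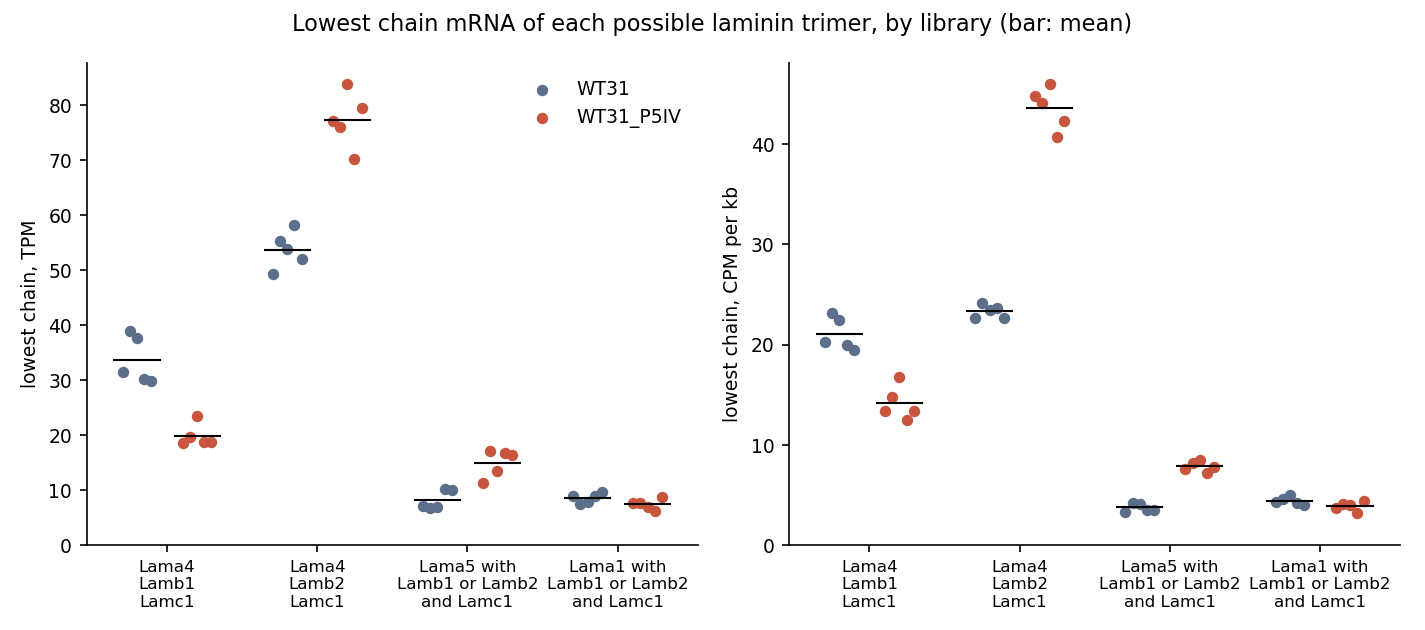
Level of the lowest chain of each possible trimer in each library, in TPM (left) and CPM per kb (right), for WT31 (blue) and WT31_P5IV (red), with the mean as a bar and axes from 0. The Lama4, Lamb1 and Lamc1 trimer is lower and the Lama4, Lamb2 and Lamc1 trimer higher in WT31_P5IV on both scales, Lama5 trimers are higher, and Lama1 trimers overlap.

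Of 15 genes of laminin receptors and their partners, all were tested, 10 were higher and 1 was lower in WT31_P5IV in edgeR's quasi-likelihood test. The 11 called are 73.3% of the list, beside 68.5% of all tested genes (34.6% higher and 33.9% lower). The median log2 fold change of the list was 0.52, and 0 were past a log2 fold change of 1, beside 9.1% of all tested genes. Without WT31 replicates 2 and 3, 13 receptor genes were called (11 higher, 2 lower), beside 9407 of 14009 genes (4616 higher, 4791 lower). Itgb1, the beta subunit shared by most laminin-binding integrins, was at 832 ± 47.7 and 1157 ± 87.5 CPM (SD, n = 5), a log2 fold change of 0.48 (edgeR quasi-likelihood adjusted p = 2.1e-06). Dag1, which encodes dystroglycan, rose from 506 ± 17.9 to 779 ± 60.6 CPM, a log2 fold change of 0.62.

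Among the alpha subunits that bind laminins with Itgb1, Itga6 was at 307 ± 25.8 and 347 ± 23.1 CPM with overlapping groups (log2 fold change 0.18, edgeR quasi-likelihood adjusted p = 0.014, 0.859 with limma on log2(TPM + 0.1)). Itga3, which binds Lama5 laminins, was at 2.07 ± 0.188 and 3.16 ± 0.298 CPM, a log2 fold change of 0.61. Itga7, the muscle form, was at 0.502 ± 0.209 and 0.601 ± 0.134 CPM (log2 fold change 0.26, edgeR quasi-likelihood adjusted p = 0.446). Itgb4, which pairs with Itga6 in hemidesmosomes, rose from 1.61 ± 0.186 to 2.98 ± 0.439 CPM.

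Of the receptors that are not integrins, Mcam, an adhesion molecule of melanoma that binds Lama4 laminins, rose from 100.2 ± 3.41 to 178 ± 9.92 CPM (SD, n = 5), a log2 fold change of 0.83. Bcam, the receptor for the alpha 5 chain, was low at 1.23 ± 0.136 and 1.78 ± 0.260 CPM, with overlapping groups and a log2 fold change of 0.52 (edgeR quasi-likelihood adjusted p = 0.0056). The syndecans, which bind laminins through heparan sulfate, went both ways. Sdc1 rose from 45.6 ± 3.00 to 89.8 ± 4.93 CPM, a log2 fold change of 0.98. Sdc2 fell by 0.23 on the log2 scale, from 162 ± 6.42 to 139 ± 6.31 CPM. Cd151, a tetraspanin that associates with laminin-binding integrins, was at 212 ± 16.7 and 314 ± 21.1 CPM. Rpsa, a ribosomal protein also named the laminin receptor, was at 1768 ± 117 and 1689 ± 69.8 CPM (log2 fold change −0.066, edgeR quasi-likelihood adjusted p = 0.236). It passed the test in 6 of 21 alternatives, with −0.15 without WT31 replicates 2 and 3.

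The other matrix genes of the basement membrane went both ways. Of 16 genes, 13 were tested and all were called, 6 higher and 7 lower, beside 68.5% of all tested genes (34.6% higher and 33.9% lower). In the alternatives that tested these 13 genes, 11 to 13 were called, other than against a minimum fold change of 1.5. Their median log2 fold change was −0.20, and it turned to 0.20 for the 11 genes with at least 10 counts in every library, a limit that removes Col4a2 and Egflam. Those past a log2 fold change of 1 were 4 (30.8% of those tested, beside 9.1% of all tested genes), Agrn being higher and Col4a1, Col4a2 and Egflam lower. Agrn, the proteoglycan agrin that binds the laminin coiled coil, rose from 161 ± 7.40 to 328 ± 20.1 CPM (SD, n = 5), a log2 fold change of 1.02. It lay close to the limit of 1, at 0.99 without WT31_P5IV replicate 3 and 0.83 at the lowest alternative, limma on log2(TPM + 1). Col4a1 and Col4a2 encode the chains of the common collagen IV network that lies beside the laminin sheet. Col4a1 went from 945 to 1076 counts per library in WT31 to 14 to 19 in WT31_P5IV, or −5.74 as a log2 fold change (edgeR quasi-likelihood adjusted p = 2.0e-16). Col4a2 went from 811 to 945 counts to 4 to 11, a log2 fold change of −6.60. On log2(TPM + 0.1) these were −4.18 and −5.46, and on log2(TPM + 1) −2.93 and −3.08. The added constant makes the change of low genes smaller on these scales. Without it the ratio of WT31_P5IV to WT31 for Col4a1 was 0.0471 in TPM, beside 0.0186 in CPM. For Col4a2 the ratios were 0.0112 and 0.0102. In TPM itself Col4a1 was at 10.3 ± 1.14 and 0.483 ± 0.147 and Col4a2 at 8.22 ± 0.589 and 0.0919 ± 0.0420 (SD, n = 5). Egflam, which encodes pikachurin, a ligand of dystroglycan, had 286 to 320 counts in WT31 and 0 to 1 in WT31_P5IV, and was at least 94.8-fold lower against 3 counts per library.

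Nidogens link laminin to collagen IV through the gamma 1 chain. Nid1 fell by 0.44 on the log2 scale, from 10.0 ± 0.701 to 7.41 ± 0.484 CPM (SD, n = 5). Nid2, at 74.8 ± 3.10 and 86.0 ± 5.31 CPM, differed by 0.20 on the log2 scale, which lost its call in limma on log2(TPM + 0.1) with an adjusted p of 0.361. Hspg2, which encodes perlecan, rose from 224 ± 33.1 to 313 ± 13.5 CPM, a log2 fold change of 0.48. Pxdn, the enzyme that crosslinks collagen IV, rose from 183 ± 14.1 to 324 ± 21.6 CPM, a log2 fold change of 0.83. Ntn4, a netrin that binds laminin gamma 1, rose from 9.75 ± 0.641 to 14.96 ± 1.36 CPM. Sparc, a collagen-binding matricellular protein, was the most abundant gene of the list and fell by 0.66 on the log2 scale, from 3096 ± 125 to 1960 ± 112 CPM.

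Dystroglycan holds laminins through a sugar chain built by a set of glycosyltransferases. Of 12 genes listed for this pathway and found by symbol, 11 were tested, 10 were higher and 0 lower in WT31_P5IV (90.9% of those tested, beside 68.5% of all tested genes called and 34.6% called higher), with a median log2 fold change of 0.41. With limma on log2(TPM + 0.1) 7 were called, all higher, beside 8861 of 13620 genes called and 2915 called higher. Without WT31 replicates 2 and 3, 9 were called, all higher, beside 9407 of 14009 genes called and 4616 called higher. Pomt1 and Pomt2, which form the enzyme that starts the chain, rose from 44.4 ± 1.37 to 77.9 ± 4.97 CPM (SD, n = 5) and from 30.7 ± 1.20 to 56.5 ± 4.22 CPM, with log2 fold changes of 0.81 and 0.88. Pomgnt1, which extends another type of O-mannose sugar chain on dystroglycan, rose from 67.7 ± 3.15 to 98.3 ± 3.55 CPM. B4gat1, which primes the laminin-binding repeat, had a log2 fold change of 0.56.

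**Figure D5:**
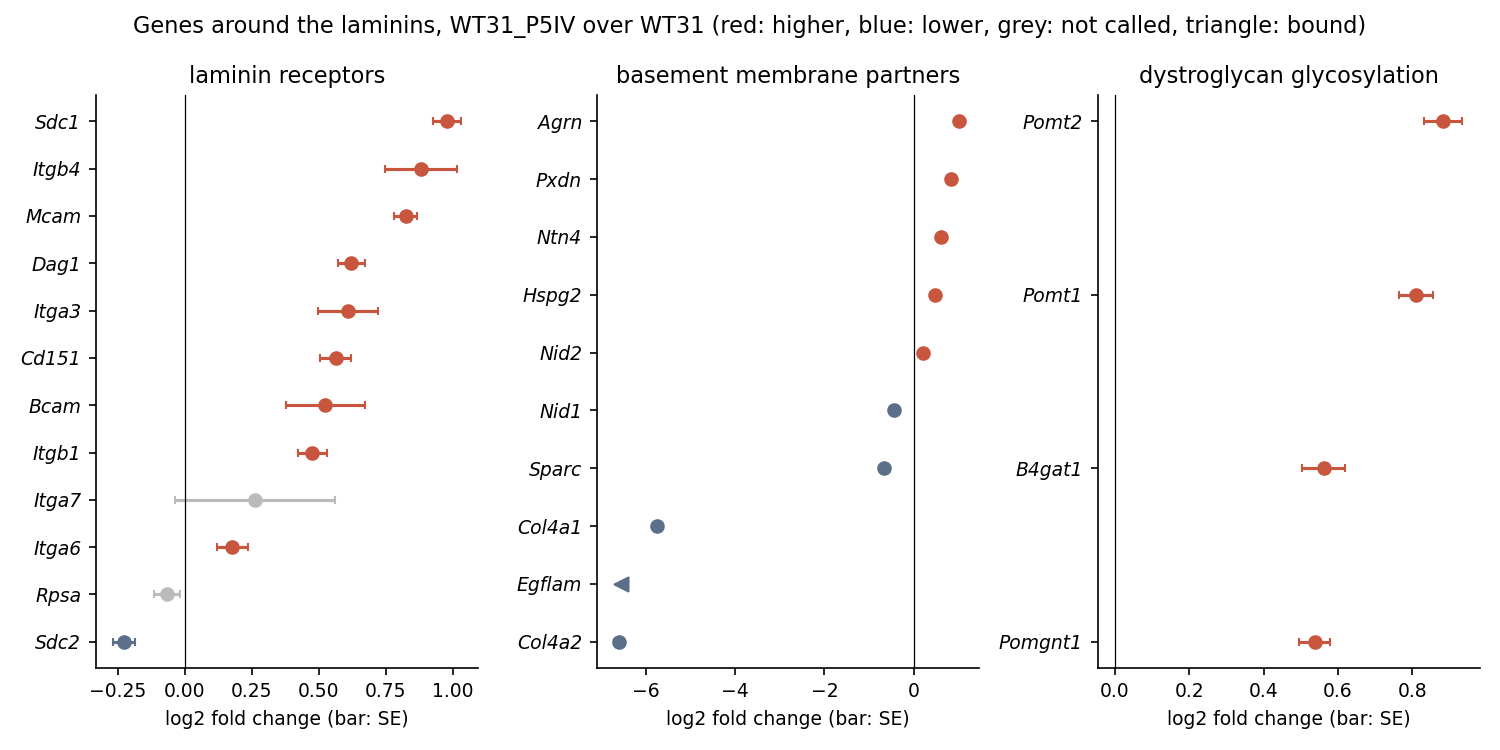
Log2 fold change (WT31_P5IV over WT31, bar: SE) of the genes named in the text from 3 lists in edgeR's quasi-likelihood test, with red for genes called higher, blue for lower and grey for those not called, and a triangle for the bound of Egflam against 3 counts, each panel with its own scale. Among the receptors shown only Sdc2 is called lower, the matrix genes reach −6.60 at Col4a2, and the glycosylation genes shown lie between 0.54 and 0.88.

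The genes whose log2 CPM most resembled that of Lama5 over the 10 libraries were Celsr2 (Pearson r = 0.999), an adhesion receptor of the cadherin family, Itga4 (0.998), the alpha 4 integrin subunit, and Bahcc1 (0.998), a chromatin protein. Their own log2 fold changes were 0.59, 1.27 and 0.48. In all, 296 genes had an r over 0.98 with Lama5. The 10 points are 2 groups of libraries that differ in most genes, so r also carries the difference between the lines.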

How the data were processed

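RNA-seq of 5 WT31 and 5 WT31_P5IV libraries was used. According to the methods and the submitters' processing notes, reads were trimmed with Trim Galore 0.6.4 and pseudoaligned with kallisto (0.4.6 in the notes) to GRCm38.p6. The authors deposited kallisto's estimated counts summed per gene. The authors also deposited TPM values per gene, which are already scaled to transcript length and library total. Whether counting used strand is not given in the sources used here. Of 55385 identifiers 55144 were found in GENCODE M21, which gave symbols, positions and transcript lengths.

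Estimated counts were rounded, filtered with filterByExpr, scaled by TMM and tested in edgeR 4.0.16 under R 4.3.3 (functions glmQLFit and glmQLFTest) without covariates, with p-values of the 13620 tested genes adjusted after Benjamini and Hochberg and called under 0.05. The SE is the log2 fold change divided by the root of the F statistic. Chains removed by the filter were compared by an exact permutation test, which cannot give a two-sided p under 0.00794. Chain ratios, shares and lowest chains were computed per library from TPM, and again from CPM per kb of the longest transcript. Alternatives were DESeq2 1.42.0, limma 3.58.1 (voom, which the methods name without stating a scaling or filter, run here with TMM and also without scaling or filter, log2(TPM + 0.1), log2(TPM + 1)), scaling by upper quartiles, a filter of 1 count in all and one of 10 counts per library, a block for the replicate number, glmTreat with a minimum of 1.5-fold, and each library left out. Leaving out WT31 replicates 2 and 3 was added after seeing the data. Data were also simulated from the means and spread of the WT31 libraries, with 200 of 13620 genes changed. There the edgeR test found 89% of those changed 2-fold and 82% of those changed 1.5-fold, with 7 false calls. The real comparison called 68.5% of genes, so these rates need not hold for it.

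The chains, the lists of receptors, matrix partners, glycosylation genes and cell type markers, and the tests were chosen with earlier results of these data known. Named genes are all 9 chains, the genes of each list past a log2 fold change of 1, its 3 genes with the highest mean CPM, genes whose place in a complex with a laminin is described, and the 3 genes most like Lama5. Single values of some genes of the lists are not reported here. Promoter windows came from RefSeq. Libraries of a group were compared with each other, and no 2 agreed within sampling noise. Scripts ran under Python 3.11.15.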

Additional observations from a re-analysis of the deposited data

Results flagged for a closer look

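2 of 54 groups of 5 libraries had a value far from the others, judged by its gap to the nearest library over the whole range, and chance alone gives about 1 in 20. Lamb1 was at 23.5 TPM in WT31_P5IV replicate 3, above the other WT31_P5IV libraries and still below all WT31 libraries (gap 0.763 of the range). Lama2 was at 0.0739 TPM in WT31_P5IV replicate 4 (gap 0.749 of the range), a value that rests on 3 counts.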

How the results depend on the processing

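Lama5, Lamb2 and Lamc1 kept direction and call in 21 of 21 alternatives, Lamb1 in 20, Lama4 in 18 and Lama1 in 13, and no tested chain changed sign. With limma on log2(TPM + 0.1) and log2(TPM + 1) 4 of 6 chains were called (3 higher, 1 lower), beside 8861 and 8867 of 13620 genes. The number of chains called ranged from 5 to 6 with 1 library left out, beside 8965 to 9444 genes. Without the filter on low counts it was 7 of 9 tested, beside 10163 of 31234 genes in edgeR and 10008 in voom. The seventh was Lama2, lower with adjusted p of 0.0054 in edgeR and 0.021 in voom. Against a fold change of 1.5 (glmTreat), which asks for a larger change, 1775 of 13620 genes were called (1059 higher, 716 lower). Among these were 3 of 6 chains, 3 of 15 receptor genes, 6 of 13 matrix partners and 2 of 11 glycosylation genes. CPM per kb in place of TPM gave alpha to Lamc1 ratios of 1.09 in WT31 and 0.771 in WT31_P5IV and a beta to Lamc1 ratio of 0.915 in WT31. In WT31_P5IV it gave shares of 5.86% for Lama1, 82.3% for Lama4 and 11.9% for Lama5, and in WT31 84.5% for Lama4. Lamb1 held 47.4% and 24.5% and Lamb2 52.6% and 75.4% of the beta sum. Lamb2 to Lamb1 ratios were 1.11 and 3.09, Lama4 to Lama5 ratios 11.9 and 6.94, and the log2 ratio of the lowest chain of the Lama4, Lamb2 and Lamc1 trimer was 0.90. For the ratios and shares within a library, the length assigned to each gene is what the alternative changes. For the log2 ratio between the lines it also changes the scaling of the libraries, so the part of each cannot be told apart.

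Across all tested genes the replicate numbers showed no clear pairing of the libraries. Correlations of deviations between same-numbered libraries ran from −0.096 to 0.18 and 2 of 5 libraries matched their own number best. With the replicate number as a block 9380 genes and 6 chains were called. The block made the SE smaller for each tested chain except Lamb2. It was 0.044 in place of 0.067 for Lama5, 0.044 in place of 0.073 for Lamb1, and 0.039 either way for Lamb2. Depth limits Lama2, Lama3 and Lamb3, which rest on at most 10 counts per library. Levels in TPM, ratios to Lamc1 included, carry the uncertainty of the transcript lengths of Lama5, Lama1, Lamb2 and Lamc1.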
